A study of Mus musculus with 8 samples.

Results

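The genes described here were 10 mouse genes of major histocompatibility complex (MHC) class II presentation, namely H2-Aa, H2-Ab1, H2-Eb1, Cd74, Ciita, H2-DMa, H2-DMb1, H2-DMb2, H2-Oa and H2-Ob. They were chosen by name for their known roles, out of the 55450 genes of the deposited count table, with earlier results of these data known. All 10 were among the 21451 genes with enough counts to be tested. Expression was measured by RNA sequencing in thymic epithelial cells (TECs) sorted from mouse embryos at embryonic day 17 as CD45-EpCAM+ cells, that is, cells without the pan-leukocyte surface protein and with an epithelial one. All embryos carried a tdTomato reporter knocked in to Ccl21a, a chemokine gene of medullary TECs (mTECs), and a Venus reporter transgene for Tnfrsf11a, which encodes the receptor RANK. The fluorescence of these reporters defined 3 groups, namely CCL21+RANK- TECs (3 libraries, called CCL21+ TECs hereafter), CCL21-RANK+ TECs (3 libraries, RANK+ TECs) and CCL21-RANK- TECs (2 libraries, reporter-negative TECs). Since both reporters were present in every embryo, no group was free of reporter alleles, and a group is defined by what the reporters show and not by the proteins. The study used animals of both sexes and describes its replicates in general as biological. The sex of the embryos behind each library and any pooling of embryos are not given in the sources used here, and the labels do not say whether the libraries of a group came from separate litters. The p-values below therefore measure the spread between these libraries.

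In class II presentation, an α chain and a β chain pair in the endoplasmic reticulum with the invariant chain, which fills the peptide groove and guides the complex to endosomes. There, proteases degrade the invariant chain, the editor H2-M removes its last fragment and helps peptides to bind, and H2-O restrains H2-M. In most class II positive cells, transcription of these genes depends on the transactivator CIITA, which is recruited by factors that bind the X and Y boxes of their promoters. In the thymus, class II molecules on TECs select CD4 T cells in the cortex and remove or divert self-reactive CD4 T cells in the medulla.

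Most of the genes lie close together on chromosome 17 of GRCm38. In the order of their start positions, these were H2-Oa (34092340 to 34095234), H2-DMa (34119541 to 34139101), H2-DMb2 (34143307 to 34151555), H2-DMb1 (34153072 to 34160230), H2-Ob (34238903 to 34254414), H2-Ab1 (34257689 to 34269419), H2-Aa (34282744 to 34287823) and H2-Eb1 (34305867 to 34316674). Ciita lies on chromosome 16 (10480059 to 10528418), and Cd74 lies outside this region as well. All 10 are annotated as protein coding.

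RefSeq promoter sequence of GRCm38.p6 was at hand for 7 of the 10 genes, and the 150 bases before the start are shown for those that turn the comparisons below or carry both boxes. H2-Ab1, Cd74 and Ciita had no entry. The capitals mark a Y box core (TGATTGG) and an X box core (AACNNATGATG, where N is any base), searched on both strands. These letters were spelled out after these promoters had been read, so their presence here is a description. The sequences are given 5′ to 3′ on the strand of the gene, from chr17:34145099-34145248 for H2-DMb2, chr17:34153041-34153190 for H2-DMb1, chr17:34305717-34305866 for H2-Eb1, chr17:34238755-34238904 for H2-Ob, chr17:34092229-34092378 for H2-Oa (all on the plus strand) and chr17:34287824-34287973 on the minus strand for H2-Aa.
H2-DMb2: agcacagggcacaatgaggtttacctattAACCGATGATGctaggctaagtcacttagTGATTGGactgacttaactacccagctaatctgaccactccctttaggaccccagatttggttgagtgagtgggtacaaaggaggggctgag
H2-DMb1: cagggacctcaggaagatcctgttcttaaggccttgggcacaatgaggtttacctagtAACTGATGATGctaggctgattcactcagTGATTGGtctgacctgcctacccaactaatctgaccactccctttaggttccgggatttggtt
H2-Eb1: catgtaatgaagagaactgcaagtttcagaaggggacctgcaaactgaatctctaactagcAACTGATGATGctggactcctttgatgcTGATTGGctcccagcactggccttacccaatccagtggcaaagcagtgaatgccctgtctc
H2-Ob: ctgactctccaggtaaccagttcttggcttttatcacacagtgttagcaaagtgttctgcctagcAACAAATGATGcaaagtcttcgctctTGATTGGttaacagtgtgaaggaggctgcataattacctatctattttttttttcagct
H2-Oa: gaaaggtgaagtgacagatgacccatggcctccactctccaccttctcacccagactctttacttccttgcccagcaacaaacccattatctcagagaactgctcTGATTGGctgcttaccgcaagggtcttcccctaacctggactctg
H2-Aa: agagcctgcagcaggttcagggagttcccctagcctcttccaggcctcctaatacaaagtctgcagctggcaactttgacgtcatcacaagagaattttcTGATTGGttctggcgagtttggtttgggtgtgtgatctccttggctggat
The Y box core was found in 6 of the 7 genes, all but H2-DMa, which has a pair of RefSeq starts and matched neither core before either of them. Among 32851 promoters of the same length, 5.71% held the Y box core. The X box core was found in 4 of the 7 genes, against 0.0791% of all promoters. H2-DMb1, H2-DMb2, H2-Eb1 and H2-Ob held both cores, which 7 of all 32851 promoters did (0.0213%). In these 4 genes the X box core stood upstream of the Y box core, with 18 bases between them in H2-DMb1 and H2-DMb2, 17 in H2-Eb1 and 15 in H2-Ob. The H2-DMb1 and H2-DMb2 windows, which belong to neighbouring copies of one β chain gene, were identical at 59.2% of 179 aligned columns. The windows are set by the annotated starts, and the Y box core began 63 bases before the start of H2-DMb1 and 92 before that of H2-DMb2. They are thus shifted against each other, and columns with a gap, those at the ends included, counted as not identical. This share therefore understates how alike the paired bases are. A match is not evidence of binding, and the absence of these letters says nothing about the factors.

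To place the levels, the reporter genes and the cell type markers were examined first. Levels are given as RPKM, the counts of a gene divided by its exon length and by the total of the library, which adjusts for the length of a gene. The exon length covers all annotated exons of a gene, so comparisons between genes depend on the annotation. Ccl21a and Tnfrsf11a were each highest in the population sorted as positive for their reporter, but Ccl21a was also above the reporter-negative level in RANK+ TECs. Ccl21a was at 561, 346 and 305 RPKM in CCL21+ TECs, at 152, 95.9 and 78.2 RPKM in RANK+ TECs and at 6.89 and 8.88 RPKM in reporter-negative TECs. The level of Ccl21a is uncertain, because near-identical gene copies share its reads. Tnfrsf11a was at 93.1 to 111 RPKM in RANK+ TECs, with at most 10.3 RPKM in the other libraries. The epithelial gene Epcam was present throughout, at 49.5 to 78.9 RPKM in CCL21+, 121 to 156 RPKM in RANK+ and 61.7 and 83.7 RPKM in reporter-negative TECs. The summed level of 8 thymic epithelial markers was 4743 to 5443 RPKM in CCL21+, 1643 to 1993 RPKM in RANK+, and 4208 and 4469 RPKM in reporter-negative TECs. Krt18 was the most abundant of them in CCL21+ and reporter-negative TECs, and Krt8 in RANK+ TECs. These keratins made up most of the sum in every library, and the single markers went both ways. Of the 8, 4 had a higher mean in RANK+ than in reporter-negative TECs, namely Epcam, Krt5, Krt14 and Aire, a regulator gene of mature mTECs (130.9, 94.1 and 113.8 RPKM against 0.810 and 0.120 RPKM), and the other 4 had a lower one.

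Because haematopoietic cells also express class II genes, their markers matter here, and the sums of the pan-haematopoietic, macrophage, B cell and dendritic cell lists were highest in RANK+ TECs. The summed level of 5 pan-haematopoietic markers was 182, 82.1 and 111 RPKM in the RANK+ libraries, against 2.23 to 5.09 RPKM in CCL21+ TECs and 2.24 and 1.54 RPKM in reporter-negative TECs. Most of it came from Laptm5, a lysosomal membrane protein gene, at 164, 74.5 and 101 RPKM in RANK+ TECs, whereas Ptprc, which encodes CD45 itself, reached at most 0.576 RPKM in any library. Each of the 5 markers had its highest mean in RANK+ TECs. For Ptprc the means were 0.124, 0.392 and 0.0434 RPKM in CCL21+, RANK+ and reporter-negative TECs. The 8 macrophage markers summed to 76.8, 21.1 and 26.4 RPKM in RANK+ TECs and to at most 2.05 RPKM in the other libraries. Lyz2 was the most abundant of them (52.3, 14.7 and 17.8 RPKM), and Fcgr1 was at 0 counts in all 8 libraries. Mertk, also of this list, went the other way, with means of 0.772, 0.208 and 0.836 RPKM in CCL21+, RANK+ and reporter-negative TECs. The 6 B cell markers summed to 12.8, 6.47 and 7.22 RPKM in RANK+ TECs and to at most 0.796 RPKM elsewhere, and Cd79b led this list. The 8 dendritic cell markers summed to 6.37, 4.10 and 4.78 RPKM in RANK+ TECs and to at most 1.72 RPKM elsewhere. Zbtb46 was the most abundant of these, Itgax, which encodes CD11c, reached at most 0.182 RPKM, and Clec9a was at 0 in all libraries but RANK+ replicate 1. Of other cell types, the 5 mesenchymal markers, led by Col1a1, summed to 43.3, 21.3 and 27.3 RPKM in RANK+ TECs and to at most 3.05 RPKM elsewhere. The 7 thymocyte markers (at most 19.3 RPKM) and the 4 endothelial markers (at most 4.04 RPKM) were also highest in RANK+ replicate 1, and the 5 innate lymphoid markers were highest in CCL21+ replicate 1 (30.5 RPKM), of which 29.2 RPKM was Gata3. RANK+ replicate 1 thus held the highest sum of the pan-haematopoietic, macrophage, B cell, dendritic cell and thymocyte lists, and the highest level of most class II genes as well. Results that rest on this library are given with and without it, but the part of haematopoietic RNA in the class II differences was not tested. A second feature concerned CCL21+ TECs, in which 4 parathyroid markers summed to 7122, 1749.8 and 1955 RPKM, against at most 24.9 RPKM elsewhere. CCL21+ replicate 1 was highest for these markers.

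**Figure D1:**
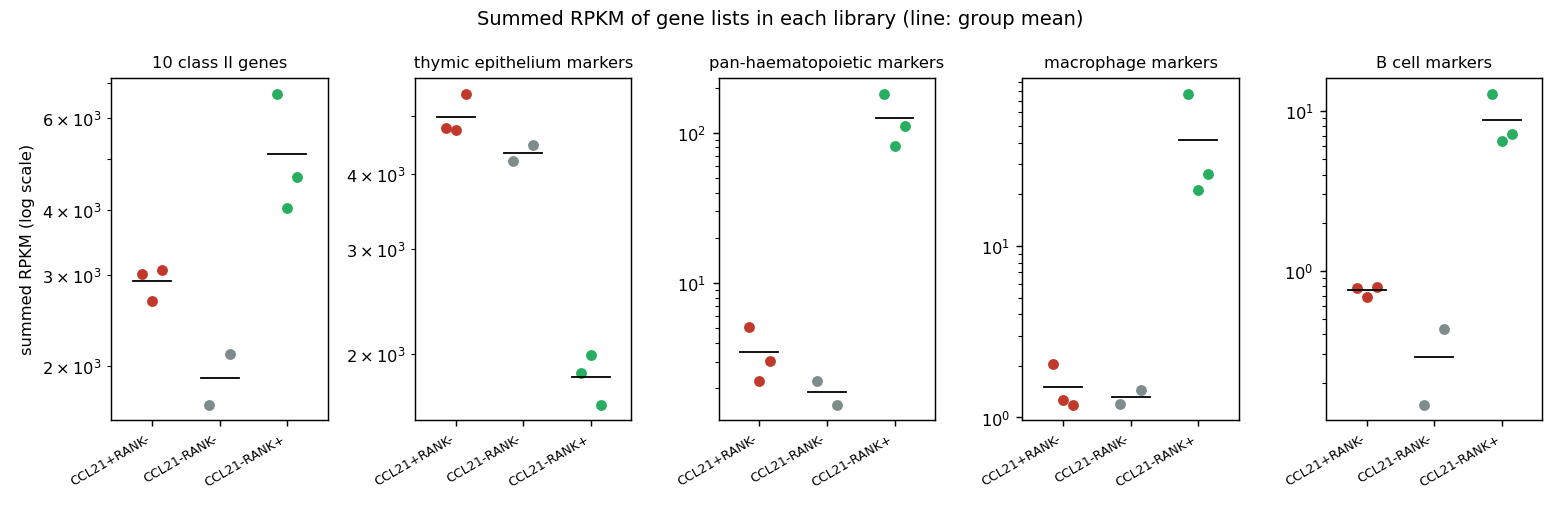
Summed RPKM (log scale, a separate axis for each panel) of the 10 class II genes and of 4 marker lists, with each point 1 library and each line a group mean. The RANK+ libraries are above all other libraries for the class II genes (4030.5 to 6669.5 RPKM) and for the haematopoietic lists, and below them for the sum of the thymic epithelial markers, most of which is Krt8 and Krt18.

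Summed over the 10 genes, class II expression was highest in RANK+ TECs, and most of the sum was Cd74, H2-Ab1, H2-Eb1 and H2-Aa. The summed level was 3011, 2674 and 3060.2 RPKM in CCL21+ TECs, 6669.5, 4030.5 and 4618 RPKM in RANK+ TECs, and 1686 and 2109.7 RPKM in reporter-negative TECs. As a share of all counts of a library, this was 0.668%, 0.590% and 0.675% in CCL21+, 1.41%, 0.874% and 0.993% in RANK+, and 0.373% and 0.463% in reporter-negative TECs. The libraries of the 3 groups did not overlap in either measure. In sorted populations, a smaller number of cells that express a gene and less RNA in each cell cannot be told apart.

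The invariant chain and the structural genes headed the order of the levels. Cd74 was the most abundant of the 10 genes in every group, and it had ranks 14, 8 and 18 among all tested genes in CCL21+, RANK+ and reporter-negative TECs. It was followed in every group by H2-Ab1, H2-Eb1 and H2-Aa. H2-Ab1 had ranks 26, 15 and 54 in the same order of groups. In CCL21+ and reporter-negative TECs the libraries of these 4 genes did not overlap with those of the next gene in the order, whereas in RANK+ TECs H2-Ab1 overlapped with H2-Eb1, and H2-Eb1 with H2-Aa. The editor and regulator genes came after these 4. In CCL21+ TECs, H2-DMb2 took place 5 and stood apart, while H2-DMa, H2-DMb1 and Ciita each overlapped with the next, the last of them with H2-Oa. In RANK+ TECs, H2-DMb2 again took place 5, H2-DMb1, H2-Oa and H2-DMa followed with overlapping libraries, and Ciita took place 9, below all of them. In reporter-negative TECs the order changed, with H2-DMb2 below both H2-DMb1 and H2-DMa, followed by Ciita and H2-Oa, and no neighbours overlapped. H2-Ob was the lowest of the 10 genes in every group. The order depends on the exon lengths. In the reporter-negative libraries H2-DMa, with 3448 exon bases, had 4843 and 6114 counts, above the 2832 and 3588 of H2-DMb1, with 1681 bases.

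**Figure D2:**
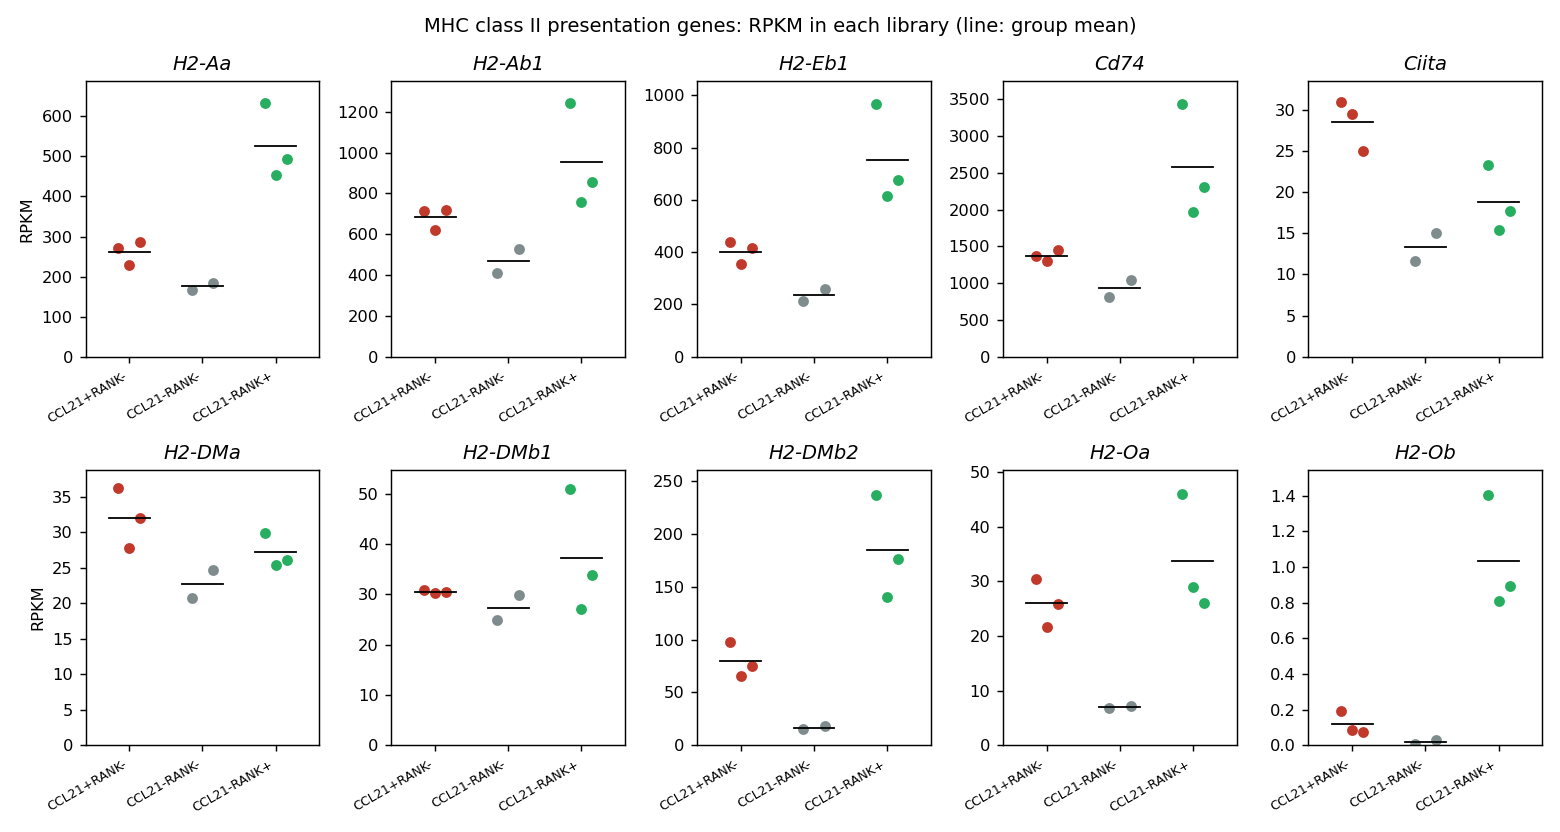
RPKM of each of the 10 genes in each library (points), with group means (lines) and a linear axis that starts at 0 in each panel. H2-Aa, H2-Ab1, H2-Eb1, Cd74 and H2-DMb2 were highest in RANK+ TECs, Ciita and H2-DMa had their highest means in CCL21+ TECs, and H2-DMb2 and H2-Oa were lowest in reporter-negative TECs.

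Differences between groups were tested with edgeR on the counts of all tested genes, and a gene was called when its adjusted p-value was under 0.05, its fold change was over 1.5 and its mean RPKM in the higher group was over 1, the thresholds the study used. Between RANK+ and reporter-negative TECs, 7 of the 10 genes were called, all higher in RANK+ TECs, where 29.5% of all tested genes were called in either direction and 14.4% in this one. The median log2 fold change of the 10 genes was 1.40, beside 0.06 for all tested genes. The libraries of these groups did not overlap for 9 of the 10 genes, beside 65.8% of all tested genes. Between CCL21+ and reporter-negative TECs, 4 of the 10 genes were called, all higher in CCL21+ TECs, with a background of 8.02% in either direction and 4.35% in this one. The median log2 fold change was 0.68, beside 0.00 for all tested genes. The libraries did not overlap for any of the 10 genes, beside 38.8% of all tested genes. This count of 4 depended on single libraries, and it was 2 without reporter-negative replicate 1. By the adjusted p-value alone, 7 of the 10 genes passed, beside 11.4% of all tested genes. Between CCL21+ and RANK+ TECs, 6 of the 10 genes were called, 5 higher in RANK+ and 1 higher in CCL21+ TECs, with a background of 30.9% in either direction and 15.4% in each. The median log2 fold change was -0.56, beside -0.11 for all tested genes, and the libraries did not overlap for 7 genes, beside 59.8% of all tested genes. Without RANK+ replicate 1, the counts of called genes in the comparisons of RANK+ TECs were 6 (with reporter-negative) and 4 (with CCL21+). Without CCL21+ replicate 1, the library with the highest parathyroid markers, 7, 3 and 6 genes were called in the order in which the comparisons are given here. These 3 comparisons share their groups, so they are not independent of each other.

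**Figure D3:**
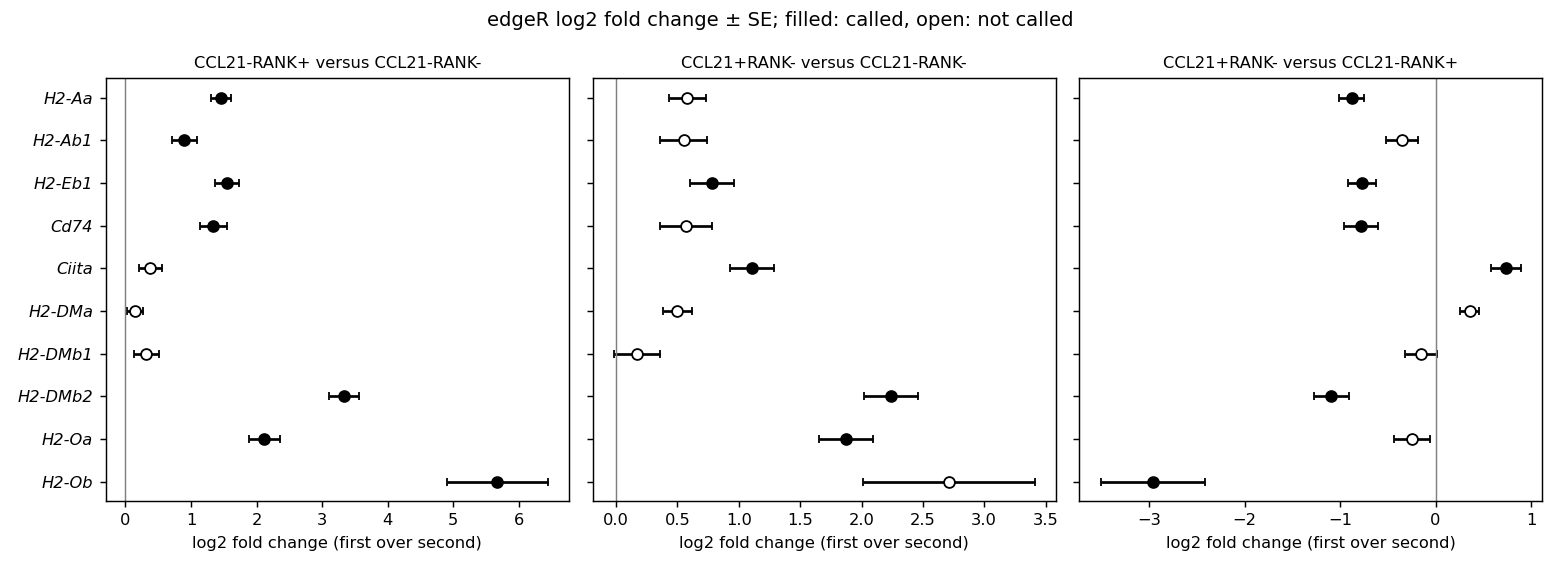
Log2 fold change with its standard error (edgeR) of the 10 genes in the 3 comparisons, each positive where the group named at the left of the panel title is higher. Filled points are called genes, 7, 4 and 6 from the left panel to the right, and Ciita and H2-DMa are to the right of 0 in all 3 panels.

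H2-Aa and H2-Ab1 encode the α and β chains of I-A, and both were highest in RANK+ TECs. H2-Aa was at 271, 230.0 and 286 RPKM in the CCL21+ libraries, 632, 454 and 492 RPKM in the RANK+ libraries, and 167 and 183 RPKM in the reporter-negative libraries. All RANK+ libraries were above all others, and reporter-negative libraries were the lowest. Compared with reporter-negative TECs, H2-Aa was 2.75-fold higher in RANK+ TECs (log2 fold change 1.46, SE 0.15, adjusted p = 4.04e-05). CCL21+ TECs were lower than RANK+ TECs by a log2 fold change of -0.88 (SE 0.13, adjusted p = 0.000337). These calls held without any single library, and without RANK+ replicate 1 the log2 fold changes were 1.37 and -0.78. Between CCL21+ and reporter-negative TECs the difference of 0.58 (SE 0.15, adjusted p = 0.0318) came to a 1.495-fold change and missed the fold threshold. This rests on the setting, since H2-Aa was called under 8 of 16 alternatives (the 8 fits without 1 library included), among them DESeq2 (0.63), upper-quartile scaling (0.62), the fit of these 2 groups only (0.60) and the replicate block (0.59, adjusted p = 0.0366). With 1 library left out it was called in 1 of 8 fits, and its adjusted p-value ranged from 0.00854 to 0.200 from edgeR.

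H2-Ab1 was at 712, 619 and 720 RPKM in the CCL21+ libraries, 1244, 760.0 and 856 RPKM in the RANK+ libraries, and 410.0 and 528 RPKM in the reporter-negative libraries. The groups did not overlap, but the gap between CCL21+ and RANK+ TECs was small against the spread of the latter. H2-Ab1 was 1.87-fold higher in RANK+ than in reporter-negative TECs (log2 fold change 0.90, SE 0.19, adjusted p = 0.00355). The difference between CCL21+ and RANK+ TECs was -0.35 (interval of 2 SE either side -0.68 to -0.02, adjusted p = 0.102) and -0.17 without RANK+ replicate 1 (adjusted p = 0.301), and that between CCL21+ and reporter-negative TECs was 0.55 (0.17 to 0.93, adjusted p = 0.0965), neither of which was called. DESeq2 called the latter (0.60, adjusted p = 0.0168). The α and β chain genes of I-A thus had different relations in the groups. Within each library, H2-Aa was at 0.381, 0.372 and 0.397 of the RPKM of H2-Ab1 in CCL21+ TECs, at 0.508, 0.597 and 0.575 in RANK+ TECs, and at 0.408 and 0.347 in reporter-negative TECs. All 3 RANK+ libraries were above the other 5, a ratio chosen after the values had been seen.

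H2-Eb1 encodes the β chain of I-E. It was at 438, 354 and 416 RPKM in CCL21+ TECs, 967, 614 and 676.0 RPKM in RANK+ TECs, and 212 and 259 RPKM in reporter-negative TECs. As for H2-Aa, the RANK+ libraries were the highest and the reporter-negative libraries the lowest. H2-Eb1 was called in all 3 comparisons, with log2 fold changes of 1.55 between RANK+ and reporter-negative TECs (SE 0.18, adjusted p = 9.01e-05), -0.77 between CCL21+ and RANK+ TECs (SE 0.15, adjusted p = 0.00216) and 0.78 between CCL21+ and reporter-negative TECs (SE 0.18, adjusted p = 0.0205). The last call was lost without CCL21+ replicate 1 or 2, or without either reporter-negative library, with adjusted p-values up to 0.156. The ratio of H2-Eb1 to H2-Ab1 was 0.777 to 0.807 in the RANK+ libraries, 0.572 to 0.615 in the CCL21+ libraries, and 0.516 and 0.490 in the reporter-negative libraries, with no overlap between groups. H2-Ea-ps, the pseudogene of the α chain partner of I-E, was at 3 counts in CCL21+ replicate 3 and at 0 in the other libraries.

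H2-Eb2, a further class II β chain gene beside H2-Eb1 (chromosome 17, 34325665 to 34341412) that is not one of the 10 genes, had a wider range. It was at 7.86, 4.34 and 4.08 RPKM in CCL21+ TECs, 132, 63.9 and 70.7 RPKM in RANK+ TECs, and 1.27 and 0.720 RPKM in reporter-negative TECs. It was 80.4-fold higher in RANK+ than in reporter-negative TECs (log2 fold change 6.33, SE 0.51, adjusted p = 8.49e-06) and lower in CCL21+ than in RANK+ TECs by a log2 fold change of -3.89 (SE 0.37, adjusted p = 2.02e-05). Transcripts of H2-Eb1 and H2-Eb2 shared 0 windows of 100 bases, the read length, so that an error-free read of this length cannot fit both. Its promoter window held the Y box core but did not match the X box core as spelled here.

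Cd74 encodes the invariant chain and lies on chromosome 18 (60803848 to 60812652). It was at 1363, 1297 and 1451 RPKM in CCL21+ TECs, 3437, 1964 and 2313 RPKM in RANK+ TECs, and 817 and 1045 RPKM in reporter-negative TECs. The 3 groups did not overlap, with RANK+ replicate 1 well above the other libraries of its group. Cd74 was 2.53-fold higher in RANK+ than in reporter-negative TECs (log2 fold change 1.34, SE 0.21, adjusted p = 0.000635), and lower in CCL21+ than in RANK+ TECs by a log2 fold change of -0.78 (SE 0.18, adjusted p = 0.00541). Without RANK+ replicate 1 these were 1.14 and -0.57, and the latter no longer passed the fold threshold (adjusted p = 0.00686). The difference between CCL21+ and reporter-negative TECs was 0.57 (interval 0.15 to 0.98, adjusted p = 0.117) and was not called, whereas DESeq2 called it (0.62, adjusted p = 0.0218). Relative to the summed RPKM of H2-Aa and H2-Ab1, Cd74 was at 1.39, 1.53 and 1.44 in CCL21+ TECs, 1.83, 1.62 and 1.72 in RANK+ TECs, and 1.42 and 1.47 in reporter-negative TECs.

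Ciita, the transactivator gene, had another order of groups. It was at 30.9, 29.5 and 25.0 RPKM in CCL21+ TECs, 23.3, 15.4 and 17.7 RPKM in RANK+ TECs, and 11.6 and 15.1 RPKM in reporter-negative TECs. All CCL21+ libraries were above all others, and every RANK+ library was above both reporter-negative libraries. Ciita was 1.67-fold higher in CCL21+ than in RANK+ TECs (log2 fold change 0.74, SE 0.16, adjusted p = 0.00333), the only one of the 10 genes called in this direction. It was 2.16-fold higher in CCL21+ than in reporter-negative TECs (1.11, SE 0.18, adjusted p = 0.00447), a call lost without reporter-negative replicate 1 (adjusted p = 0.0583). The difference of 0.38 between RANK+ and reporter-negative TECs (interval 0.02 to 0.73) was not called (adjusted p = 0.107), although its adjusted p-value passed 0.05 with other scalings, without the expression filter and with DESeq2. For each unit of Ciita, the structural genes were therefore most abundant in RANK+ TECs. The ratio of H2-Aa to Ciita was 8.77, 7.79 and 11.4 in CCL21+ TECs, 27.1, 29.5 and 27.9 in RANK+ TECs, and 14.5 and 12.1 in reporter-negative TECs. The ratio of H2-Ab1 to Ciita was 20.95 to 28.8 in CCL21+, 48.5 to 53.3 in RANK+ and 35.4 and 35.0 in reporter-negative TECs, and neither ratio overlapped between groups. Exons of Ciita overlap 329 bases of Dexi on the opposite strand, and whether the counting used strand is not stated in the sources used here.

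H2-DMa encodes the α chain of the editor H2-M, and H2-DMb1 and H2-DMb2 encode its β chains. H2-DMa covered a narrow range, at 36.2, 27.9 and 32.1 RPKM in CCL21+ TECs, 29.98, 25.4 and 26.1 RPKM in RANK+ TECs, and 20.8 and 24.8 RPKM in reporter-negative TECs. The CCL21+ and RANK+ libraries overlapped, and both reporter-negative libraries were below the others. H2-DMa was called in none of the comparisons. Its difference passed an adjusted p of 0.05 between CCL21+ and RANK+ TECs (log2 fold change 0.36, SE 0.10, adjusted p = 0.0153) and between CCL21+ and reporter-negative TECs (0.50, SE 0.12, adjusted p = 0.0252), with folds under 1.5. The first pass was lost with DESeq2 (0.0692) and, in edgeR, with DESeq2 size factors (0.0585). It was also lost in edgeR without CCL21+ replicate 1 (0.0553) or RANK+ replicate 3 (0.0735). The second was lost without CCL21+ replicate 1 (edgeR, 0.0628) and without either reporter-negative library. Its log2 fold change was 0.44 and 0.54 without reporter-negative replicates 1 and 2 in turn, fits that leave 1 library in that group. The interval of the H2-DMa difference between RANK+ and reporter-negative TECs was -0.10 to 0.37. Exons of H2-DMa overlap 360 bases of Brd2 on the opposite strand.

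H2-DMb1 was likewise called in none of the comparisons. It was at 31.0, 30.3 and 30.5 RPKM in CCL21+ TECs, 50.9, 27.2 and 33.9 RPKM in RANK+ TECs, and 25.0 and 29.8 RPKM in reporter-negative TECs. The RANK+ libraries overlapped with those of both other groups, and its log2 fold change of -0.15 between CCL21+ and RANK+ TECs (interval -0.49 to 0.19) became 0.08 without RANK+ replicate 1. The difference between RANK+ and reporter-negative TECs was 0.32 (interval -0.07 to 0.70) and 0.09 without the same library. The interval of that between CCL21+ and reporter-negative TECs was -0.22 to 0.55.

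H2-DMb2, in contrast, was called in all 3 comparisons, each time beyond the spread between libraries. It was at 98.1, 65.2 and 74.7 RPKM in CCL21+ TECs, 237, 141 and 176 RPKM in RANK+ TECs, and 15.4 and 18.3 RPKM in reporter-negative TECs. The 3 groups were well apart, and even the lowest CCL21+ library was far above both reporter-negative libraries. H2-DMb2 was 10.03-fold higher in RANK+ than in reporter-negative TECs (log2 fold change 3.33, SE 0.23, adjusted p = 3.65e-06) and 4.72-fold higher in CCL21+ than in reporter-negative TECs (2.24, SE 0.22, adjusted p = 0.000346). Between CCL21+ and RANK+ TECs the log2 fold change was -1.09 (SE 0.18, adjusted p = 0.000705). All 3 calls held without any single library.

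The balance of the β chain genes of H2-M thus differed among the populations. H2-DMb2 was at 3.17, 2.15 and 2.45 times the RPKM of H2-DMb1 in CCL21+ TECs, 4.66, 5.18 and 5.18 times in RANK+ TECs, and 0.616 and 0.615 times in reporter-negative TECs. H2-DMb2 was therefore the more abundant of the pair in both populations with a reporter and the less abundant in reporter-negative TECs. Relative to the α chain gene H2-DMa, the ratio of H2-DMb2 was 2.33 to 2.71 in CCL21+, 5.53 to 7.90 in RANK+, and 0.739 and 0.740 in reporter-negative TECs. These ratios, like those to Ciita, were chosen after the values had been seen and were not tested. The 2 genes share sequence, since 179 windows of 100 bases occur in transcripts of both, 11.3% of the windows of H2-DMb1 and 10.3% of those of H2-DMb2, and RSEM divided reads between them in every library. With their counts summed to a single gene, the log2 fold changes were 2.22 between RANK+ and reporter-negative TECs (adjusted p = 1.93e-05), 1.34 between CCL21+ and reporter-negative TECs (adjusted p = 0.00258) and -0.89 between CCL21+ and RANK+ TECs (adjusted p = 0.00166).

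**Figure D4:**
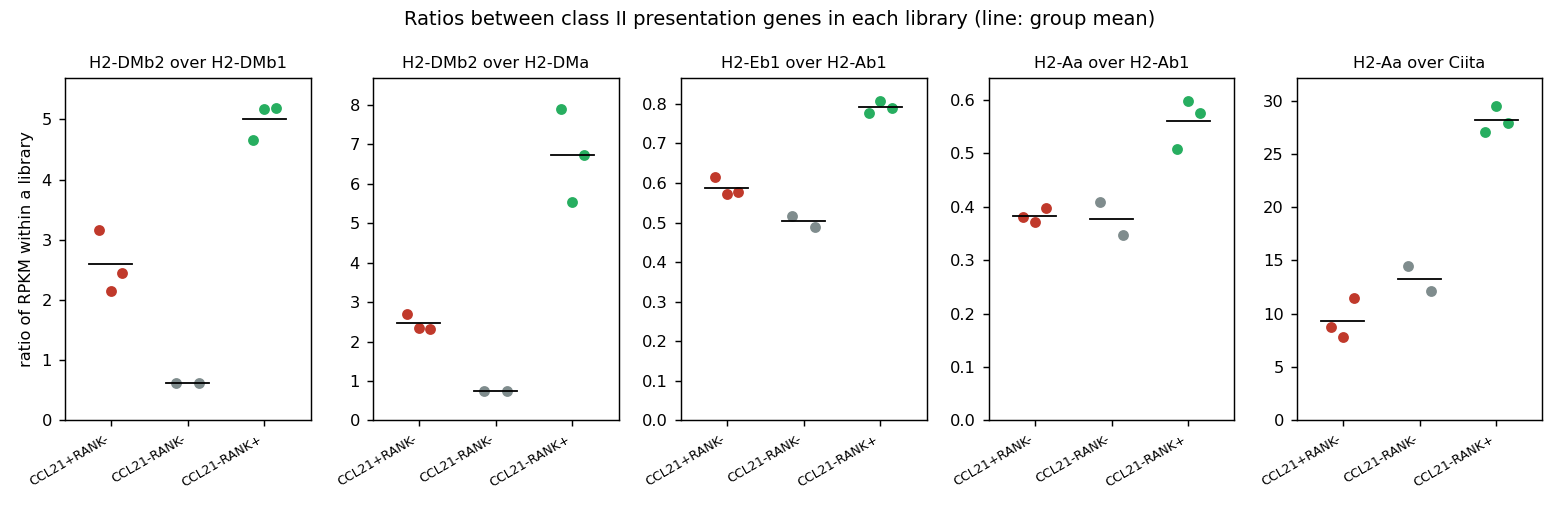
Ratios of RPKM between class II presentation genes within each library (points), with group means (lines) and linear axes that start at 0. H2-DMb2 over H2-DMb1 is 0.615 and 0.616 in the reporter-negative libraries and above 2 in the other 6, and H2-Aa over Ciita is at least 27.1 in the RANK+ libraries and at most 14.5 in the other 5.

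H2-Oa and H2-Ob encode the α and β chains of H2-O, which in peripheral tissues is mainly found in B cells and in some dendritic cells, and also in TECs. H2-Oa was at 30.5, 21.6 and 25.9 RPKM in CCL21+ TECs, 46.1, 29.0 and 26.0 RPKM in RANK+ TECs, and 6.92 and 7.26 RPKM in reporter-negative TECs. The populations with a reporter overlapped, and both reporter-negative libraries were far below them. H2-Oa was 4.34-fold higher in RANK+ (log2 fold change 2.12, SE 0.23, adjusted p = 5.03e-05) and 3.66-fold higher in CCL21+ (1.87, SE 0.22, adjusted p = 0.000994) than in reporter-negative TECs. Both calls held without any single library. Between CCL21+ and RANK+ TECs its difference was -0.25 (interval -0.62 to 0.12, adjusted p = 0.294), and it was -0.01 without RANK+ replicate 1. Of the 10 class II genes, H2-DMb2 and H2-Oa were thus those above 1 RPKM that separated CCL21+ from reporter-negative TECs by the widest folds. Exons of H2-Oa overlap 321 bases of the antisense gene BC051537.

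H2-Ob was low in all groups. It had 62, 22 and 23 counts in CCL21+ TECs (0.193, 0.0889 and 0.0776 RPKM), 432, 218 and 206 counts in RANK+ TECs (1.40, 0.808 and 0.896 RPKM), and 2 and 12 counts in reporter-negative TECs (0.00551 and 0.0311 RPKM). The RANK+ libraries were above all others, but below the α chain gene by a wide margin, with H2-Ob at 0.0278 to 0.0344 of the RPKM of H2-Oa. H2-Ob was higher in RANK+ than in reporter-negative TECs by a log2 fold change of 5.67 (SE 0.77, adjusted p = 0.000236) and lower in CCL21+ than in RANK+ TECs by -2.96 (SE 0.55, adjusted p = 0.00138). Both calls were lost without RANK+ replicate 1, since the mean RPKM then fell under 1. The size of the first also rested on single libraries of few counts, at 4.97 without reporter-negative replicate 1 and 7.25 without reporter-negative replicate 2. The difference of 2.71 between CCL21+ and reporter-negative TECs (SE 0.70, adjusted p = 0.0355) was not called for the same reason, and it was 2.01 and 4.28 without these libraries in turn (adjusted p = 0.202 and 0.0489). Like H2-Ob, the summed B cell markers given above were highest in RANK+ TECs and, among these libraries, in replicate 1. The sums of other marker lists were so too, and within CCL21+ TECs H2-Ob and the B cell sum had different orders. A relation between them was not tested. The ratio of H2-O to H2-M genes, summed over their chains, was 0.186, 0.176 and 0.189 in CCL21+ TECs, 0.149, 0.154 and 0.114 in RANK+ TECs, and 0.113 and 0.1001 in reporter-negative TECs. Nearly all of the H2-O sum was H2-Oa. The ratio thus does not describe H2-Ob, which was highest in RANK+ TECs.

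Of the ratios, 4 were tested in the 3 comparisons with an exact permutation test over libraries (two-sided), namely H2-O (nearly all H2-Oa) over H2-M, Cd74 over the sum of H2-Aa and H2-Ab1, H2-DMa over H2-Ab1, and H2-Eb1 over H2-Ab1. In 10 of these 12 tests the groups did not overlap, which gave the smallest p-values possible, 0.1 with 3 against 3 libraries and 0.2 with 3 against 2. After adjustment over the 12 tests these were 0.24, so this test cannot separate the ratios at 0.05 with these numbers of libraries. The exceptions were the ratios of Cd74 to I-A and of H2-DMa to H2-Ab1 between CCL21+ and reporter-negative TECs, which overlapped. H2-DMa over H2-Ab1 was 0.0446 to 0.0509 in CCL21+ TECs, 0.0508 and 0.0469 in reporter-negative TECs and 0.0241 to 0.0335 in RANK+ TECs.

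For the factors that bring CIITA to class II promoters, most differences were under the fold threshold. Of 7 genes of the RFX complex, NF-Y and CREB1, all were tested, and the called ones were Rfxap and Rfxank, both lower in RANK+ TECs than in the other groups. These 2 of 7 are close to the share of all tested genes called in either direction, 30.9% between CCL21+ and RANK+ and 29.5% between RANK+ and reporter-negative TECs. In the direction of these calls alone, 15.4% of all tested genes were called higher in CCL21+ than in RANK+ TECs. Lower in RANK+ than in reporter-negative TECs were 3244 of 21451 genes. The list was not tested against these shares. Rfxap was at 6.24, 6.75 and 7.06 RPKM in CCL21+, 4.27, 3.10 and 3.94 RPKM in RANK+, and 7.07 and 8.67 RPKM in reporter-negative TECs. Its log2 fold change was 0.95 between CCL21+ and RANK+ TECs (adjusted p = 0.000513), and that of Rfxank was 0.65 (adjusted p = 0.00241). Nfyc, with the highest mean of the list in CCL21+ and reporter-negative TECs, was at 8.23 to 12.3 RPKM over all libraries, and Nfya led it in RANK+ TECs with a mean of 10.2 against 10.03 RPKM. Between CCL21+ and reporter-negative TECs the adjusted p-values of all 7 genes were 0.172 or more.

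Interferon-γ induces Ciita through JAK kinases and the transcription factor IRF1 in many cells, and several genes of this route had their highest levels in CCL21+ TECs. Of 9 listed genes, 4 were called higher in CCL21+ and 2 higher in RANK+ TECs when these were compared, against 15.4% of all tested genes in each direction. Irf1 was at 74.1, 59.7 and 76.6 RPKM in CCL21+, 27.9, 26.7 and 28.4 RPKM in RANK+, and 49.0 and 56.4 RPKM in reporter-negative TECs (log2 fold change 1.46 between CCL21+ and RANK+ TECs, adjusted p = 2.50e-06). The 3 groups did not overlap. Jak1 (0.67), Jak2 (0.62) and the receptor chain gene Ifngr1 (0.66) were also called, whereas Ifngr2 (-0.79) and the inhibitor gene Socs1 (-0.60) were higher in RANK+ TECs. Between RANK+ and reporter-negative TECs, 2 of the 9 genes (Ifngr2 and Socs1) were called higher and 1 (Irf1) lower in RANK+ TECs, a share near the 29.5% of all tested genes. Jak1, Ifngr1 and Ifngr2 were called higher in CCL21+ than in reporter-negative TECs, where 4.35% of all tested genes were.

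The proteases that prepare the groove of class II molecules were divided between the populations. Of 10 endolysosomal genes, 5 were called higher in CCL21+ and 4 higher in RANK+ TECs when these were compared, against 15.4% of all tested genes in each direction. Ctsl, the cathepsin that degrades the invariant chain in cortical TECs, was at 1480, 1114 and 1305 RPKM in CCL21+, 109.7, 159 and 100.2 RPKM in RANK+, and 707 and 800.1 RPKM in reporter-negative TECs. Ctss, the cathepsin that does so in dendritic cells, macrophages and B cells, was instead highest in RANK+ and lowest in reporter-negative TECs, at 3.94, 2.39 and 3.61 RPKM in CCL21+, 95.5, 47.8 and 56.3 RPKM in RANK+, and 0.884 and 0.802 RPKM in reporter-negative TECs. The log2 fold change between CCL21+ and RANK+ TECs was 3.51 for Ctsl (SE 0.23, adjusted p = 2.47e-06) and -4.20 for Ctss (SE 0.26, adjusted p = 1.68e-06). Higher in CCL21+ TECs were also Lgmn (2.19), Ctsd (1.11), the invariant chain peptidase gene Sppl2a (1.04) and the cathepsin inhibitor gene Cst3 (0.77), and higher in RANK+ TECs were Ctsh (-4.02), Ctsz (-1.54) and the lysosomal thiol reductase gene Ifi30 (202 to 363 RPKM, against 50.3 to 71.6 RPKM). Between RANK+ and reporter-negative TECs, Ctss, Ctsh, Ctsz and Ifi30 were called higher and Ctsl, Lgmn and Sppl2a lower in RANK+ TECs. Of all tested genes, 29.5% were called in either direction there. RANK+ replicate 1 had the highest Ctss, Ctsh, Ctsz and Ifi30 of all libraries, as it had for the haematopoietic markers, and their part in these levels was not tested. Ctss, Ctsz and Ctsd were called higher in CCL21+ than in reporter-negative TECs, as were 4.35% of all tested genes.

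**Figure D5:**
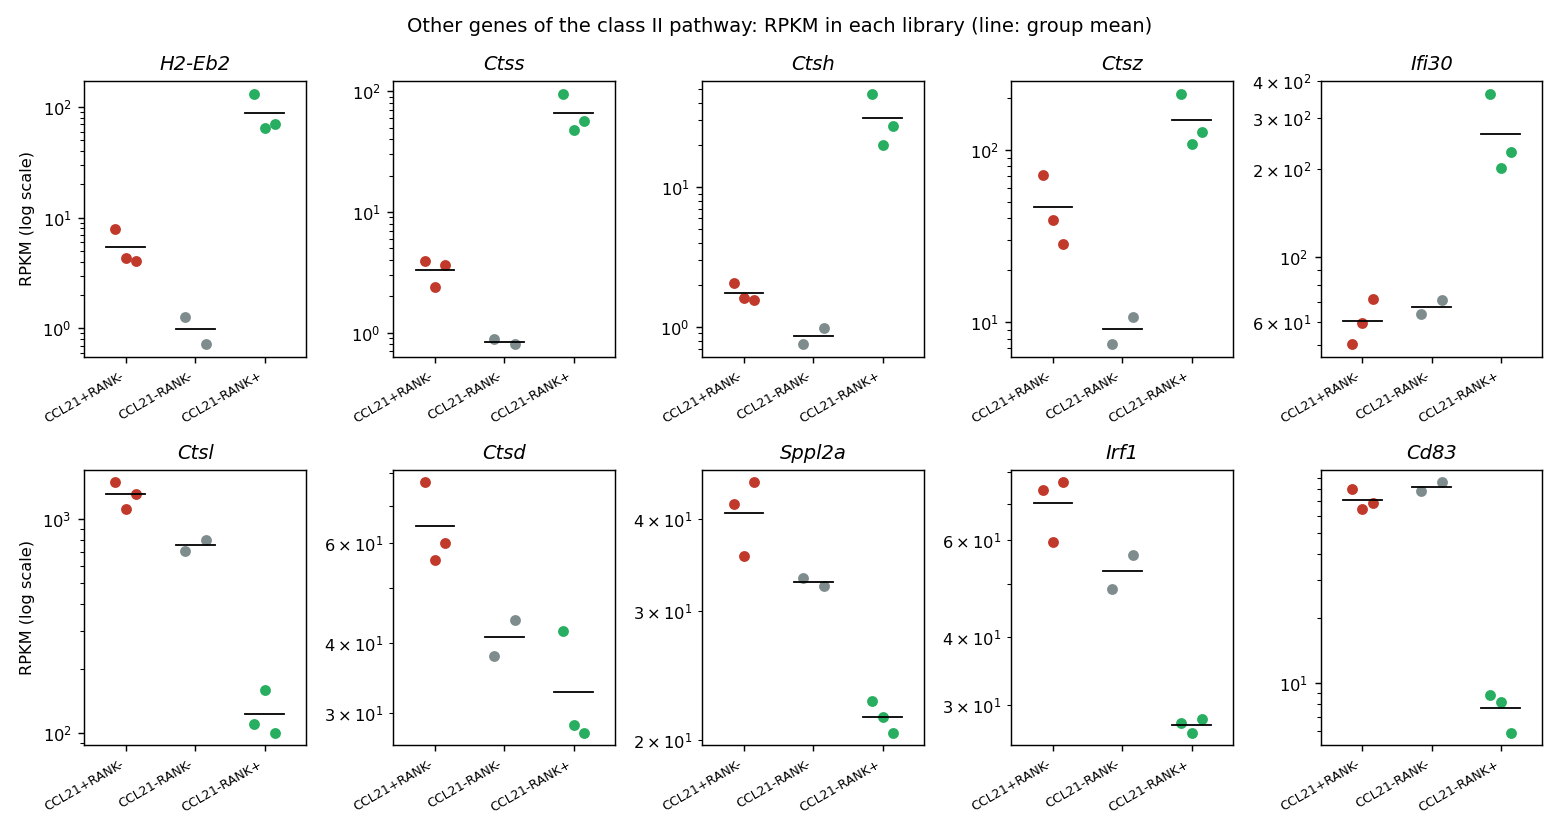
RPKM (log scale, a separate axis for each panel) of 10 other genes of the class II pathway in each library (points), with group means (lines). H2-Eb2, Ctss, Ctsh, Ctsz and Ifi30 were highest in the RANK+ libraries, and Ctsl, Sppl2a, Irf1 and Cd83 were lowest in them.

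Of 3 genes that control class II on the cell surface, Cd83 and March8 were called between CCL21+ and RANK+ TECs, and 1 of them in each of the other comparisons, against 30.9%, 29.5% and 8.02% of all tested genes. Cd83, which protects class II from the ubiquitin ligases of the MARCH family in TECs, was at 79.6, 64.7 and 68.9 RPKM in CCL21+, 8.84, 8.17 and 5.88 RPKM in RANK+, and 77.8 and 85.7 RPKM in reporter-negative TECs. Its log2 fold change was 3.34 between CCL21+ and RANK+ TECs (SE 0.16, adjusted p = 5.07e-07) and -3.54 between RANK+ and reporter-negative TECs (SE 0.17, adjusted p = 6.25e-07). March8, a ligase of class II in TECs, was at 7.10 to 8.51 RPKM in CCL21+, 3.65 to 4.67 RPKM in RANK+ and 4.06 to 4.59 RPKM in reporter-negative TECs, and it was called higher in CCL21+ TECs in both comparisons. March1, the ligase of dendritic cells and B cells, was at most 0.0660 RPKM.

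Across the 8 libraries, H2-Aa, H2-Ab1, H2-Eb1 and Cd74 moved together, with Pearson correlations of their log2 levels between 0.92 and 0.99, whereas Ciita correlated with them at 0.10 to 0.41 and H2-DMa at 0.05 to 0.33. Ciita and H2-DMa correlated with each other at 0.93. These values rest on 8 points in 3 groups and are descriptions. Among the 11979 tested genes that reached 5 CPM (counts scaled to the library total) as the mean of a group, the 10 whose levels correlated best with the mean of these 4 genes were Gbp10, Ppp1r3d, Stat3, Smpd3, Fcer2a, Tnip1, Tspo, Gpsm3, Entpd5 and Atp6v0a1, with correlations from 0.993 to 0.987. Stat3, for example, had mean levels of 24.2, 37.2 and 16.6 RPKM in CCL21+, RANK+ and reporter-negative TECs. The genes most like Ciita were Hdac5, Kmt2a, the class I genes H2-T22 and H2-Q4, and Man2b2, with correlations from 0.991 to 0.978. H2-Q4 had mean levels of 79.4, 41.9 and 29.0 RPKM in the same order of groups.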

How the data were processed

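RNA was measured in 8 libraries of CD45-EpCAM+ TECs sorted from reporter embryos. The authors deposited a table of expected counts per gene from RSEM, which divides a read that fits several genes among them, so that 4.47% to 5.94% of the values of a library were not whole. The submitters' processing notes name bcl2fastq 2.20, Trimmomatic, STAR 2.5.1, RSEM 1.3.1 and mm10. The methods name CLC Genomics Workbench and a TruSeq kit, whereas the labels name a NEBNext kit. The totals were 42751858 to 71625319 counts per library, of which 6.89% to 19.4% fell on the noncoding gene Gm26917 and 1.47% to 10.7% on Gm42418, so that all RPKM values depend on them. No pair of libraries of a group was as alike as counting error allows (chi-square of 84.9 to 301 per gene), and none were merged.

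Counts were rounded and tested with edgeR 4.0.16 under R 4.3.3 (TMM scaling, default expression filter, quasi-likelihood test, 1 fit of 8 libraries with 3 group means, Benjamini-Hochberg adjustment over 21451 genes). RPKM was computed from library totals and from exon lengths of GENCODE M21, taken over all annotated exons of a gene with overlaps counted once. Ratios were tested by exact permutation with scipy 1.17.1. All 10 genes are described, and listed pathway genes are named where called in a comparison or where they led their list. The genes, lists and markers were chosen with earlier results of these data known. Alternatives were other scalings, DESeq2 1.42.0, no expression filter, only the groups compared, the replicate number as a block, the adjusted p-value alone, leaving out Gm26917 and Gm42418, and leaving out each library. One gene each of the interferon-γ and B cell lists is not reported here. The summed H2-DMb1 and H2-DMb2 counts were added after seeing the data. The fit was checked on simulated counts. Promoter sequences came from RefSeq (GRCm38.p6). Protein sequences, cortical TEC libraries and the single-cell data of the study were not used here.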

Additional observations from a re-analysis of the deposited data

How the results depend on the processing

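The depth limits H2-Ob most, which had 2 and 12 counts in the reporter-negative libraries, and 2 libraries of that group limit both of its comparisons. With the adjusted p-value as the only threshold, 11516 genes were called between CCL21+ and RANK+ TECs, 10501 between RANK+ and reporter-negative TECs, and 7 of the 10 class II genes between CCL21+ and reporter-negative TECs, where DESeq2 also called 7. In this last comparison, leaving out 1 library gave 657 to 2066 called genes and 2 to 5 called class II genes. The count of genes was 772 without reporter-negative replicate 1 and 657 without reporter-negative replicate 2. The log2 fold change of H2-DMb1 between CCL21+ and RANK+ TECs lay between -0.31 and 0.08 with 1 library left out, with the positive value without RANK+ replicate 1, and none of these was called. Of the other log2 fold changes of the 10 genes with 1 library left out, 215 kept their direction and side of an adjusted p of 0.05, 21 lost it and 3 gained it. Under the other settings, 201 kept it, 3 lost it and 9 gained it. The losses included H2-DMa between CCL21+ and RANK+ TECs, with DESeq2 size factors in edgeR (0.27, adjusted p = 0.0585) and with DESeq2 (0.27, 0.0692). Among the gains, Ciita passed 0.05 between RANK+ and reporter-negative TECs with DESeq2 size factors (0.52, adjusted p = 0.0479), upper-quartile scaling (0.50, 0.0406), no expression filter (0.43, 0.0416) and DESeq2 (0.52, 0.0246), and H2-Ab1 passed it with DESeq2 between CCL21+ and RANK+ TECs (-0.45, 0.0237). Between CCL21+ and reporter-negative TECs, H2-Ab1 and Cd74 passed it with DESeq2 (0.60, 0.0168 and 0.62, 0.0218) and with only these 2 groups in the fit (0.57, 0.0204 and 0.58, 0.0192). With DESeq2 size factors the median of all genes between RANK+ and reporter-negative TECs was 0.20 in place of 0.06. Leaving Gm26917 and Gm42418 out of the library totals raised all levels, for H2-Aa in RANK+ TECs to 660.2 RPKM. With the replicate number as a block, 6617, 6324 and 1913 genes and 6, 7 and 5 class II genes were called in CCL21+ versus RANK+, RANK+ versus reporter-negative and CCL21+ versus reporter-negative TECs. The numbers were not taken to pair the libraries, since the sources used here do not say that they do. Deviations of same-numbered CCL21+ and RANK+ libraries from their group means correlated at 0.126, 0.0485 and 0.0707, and those of different-numbered ones at -0.0984 to 0.041. Same-numbered pairs with a reporter-negative library were at -0.117 to -0.0411. Deviations within a group sum to 0, so such values cannot settle whether libraries were paired.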

Other observations

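Of the 5 other protein-coding genes listed among the class II genes on chromosome 17, Psmb8, Psmb9, Tap1 and Tap2 serve class I presentation, and Brd2 is a chromatin reader gene. Psmb9 (34181987 to 34187764), a subunit gene of the immunoproteasome, was at 43.5, 42.9 and 50.2 RPKM in CCL21+, 10.9, 11.4 and 9.36 RPKM in RANK+, and 34.4 and 38.7 RPKM in reporter-negative TECs. Psmb8 (34197721 to 34201454), another immunoproteasome subunit gene close to it, was highest in RANK+ TECs, at 2.67, 3.03 and 3.19 RPKM in CCL21+, 19.1, 12.3 and 16.2 RPKM in RANK+, and 1.02 and 1.01 RPKM in reporter-negative TECs. Between CCL21+ and RANK+ TECs the log2 fold change was 2.22 for Psmb9 (SE 0.11, adjusted p = 5.72e-07 from edgeR) and -2.29 for Psmb8 (SE 0.15, adjusted p = 2.54e-06). The peptide transporter genes Tap1 (1.19) and Tap2 (1.01) were called higher in CCL21+ TECs in this comparison, and Brd2 (0.33) was not called. Of all tested genes, 15.4% were called in each direction. Between CCL21+ and reporter-negative TECs, Psmb8, Tap1 and Tap2 were called higher in CCL21+ TECs, as were 4.35% of all tested genes.

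Of 12 autophagy genes, a route by which TECs load class II with their own proteins, 4 were called between CCL21+ and RANK+ TECs, all higher in CCL21+ TECs, namely Ulk1, Gabarapl1 (log2 fold change 1.47), Map1lc3b (1.19) and Gabarap (0.84). The same 4 genes were called lower in RANK+ than in reporter-negative TECs. These counts are near the shares called among all tested genes in either direction, 30.9% and 29.5%. In the direction of these calls alone, 15.4% of all tested genes were called higher in CCL21+ than in RANK+ TECs. Lower in RANK+ than in reporter-negative TECs were 3244 of 21451 genes. The list was not tested against these shares. Between CCL21+ and reporter-negative TECs, Ulk1, Gabarapl1 and Map1lc3b passed an adjusted p of 0.05 (0.0449, 0.0343 and 0.0125 from edgeR) with folds under 1.5, and the other 9 did not pass it.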
